A study of Homo sapiens with 6 samples.

Results

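The 10 genes described here belong to the epithelial-mesenchymal transition (EMT) and were followed in PDAC cells, the cells of pancreatic ductal adenocarcinoma: SNAI1, SNAI2, ZEB1, TWIST1, ESRP1, ESRP2, GRHL2, VIM, FN1 and TAGLN. They were taken by gene symbol, and all 10 stood in the table of 41768 genes. The libraries were poly(A)-selected RNA from 2 PDAC lines, PANC-1, an established human line, and a line that the labels call 90. In each line ALDOA, the gene of the glycolytic enzyme aldolase A, was targeted by siRNA. The groups were PANC-1 siALDOA (2 libraries), PANC-1 NC (1 library), 90 siALDOA (2 libraries, spelled siAldoa in the labels) and 90 NC (1 library). The labels name no allele, drug or time point for any group and do not spell out NC. They also leave unsaid whether the libraries of a group were grown as separate cultures, so the p-values speak only of the spread among these libraries, possibly a technical one. The siALDOA libraries are called siALDOA 1 and siALDOA 2 after their numbers in the labels.

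EMT is the programme by which epithelial cells lose their junctions and polarity and take on a motile, mesenchymal state. The zinc-finger proteins SNAI1, SNAI2 and ZEB1 and the basic helix-loop-helix protein TWIST1 drive it, in large part by repressing epithelial genes such as CDH1, the gene of E-cadherin. GRHL2 and the splicing factors ESRP1 and ESRP2 hold the epithelial state, and the microRNAs of the miR-200 family and miR-205 repress ZEB1. VIM, FN1 and TAGLN encode an intermediate filament protein, an extracellular matrix glycoprotein and an actin-binding protein that are used as signs of the mesenchymal state. In pancreatic cancer, lines are often placed along this axis by such genes.

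The mature microRNAs that repress ZEB1 are printed because the loci of miR-141, miR-429 and miR-205 were listed lower in PANC-1, as described further on. The loci of miR-141 and miR-429 held at most 8 fragments in any library. The other microRNAs printed belong to the miR-200 family. Capitals mark the seed, bases 2 to 8 from the 5′ end, by which a microRNA pairs with its targets. The sequences are from RefSeq (GRCh38.p14), which matched the 6 microRNA loci looked up, and lie on chromosomes 1 and 12.
hsa-miR-141-3p: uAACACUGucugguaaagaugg
hsa-miR-200a-3p: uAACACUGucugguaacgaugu
hsa-miR-200b-3p: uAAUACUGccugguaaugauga
hsa-miR-200c-3p: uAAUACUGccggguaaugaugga
hsa-miR-429: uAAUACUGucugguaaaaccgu
hsa-miR-205-5p: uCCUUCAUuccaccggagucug
The first pair share the seed AACACUG and the next 3 share AAUACUG, while miR-205-5p has CCUUCAU. The loci of miR-200a, miR-200b and miR-429 lie together on chromosome 1 from 1167160 to 1169076 (mature sequences, plus strand), and those of miR-200c and miR-141 on chromosome 12 from 6963742 to 6964176.

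The promoter windows of FN1 and VIM are printed because these mesenchymal genes differed between the lines in opposite directions, and that of ZEB1 because its log2 change from NC ran over the widest range of the 10 genes in the siALDOA libraries. Each runs from 250 bases before a RefSeq transcript start to 50 bases past it, and the windows of 3 of the 10 genes are shown, credited to RefSeq (GRCh38.p14). Capitals mark TGACGTCA and GGGCGG in the FN1 and VIM windows and CAGGTG in the ZEB1 window, on either strand.
FN1, chr2:215436019-215436318, minus strand: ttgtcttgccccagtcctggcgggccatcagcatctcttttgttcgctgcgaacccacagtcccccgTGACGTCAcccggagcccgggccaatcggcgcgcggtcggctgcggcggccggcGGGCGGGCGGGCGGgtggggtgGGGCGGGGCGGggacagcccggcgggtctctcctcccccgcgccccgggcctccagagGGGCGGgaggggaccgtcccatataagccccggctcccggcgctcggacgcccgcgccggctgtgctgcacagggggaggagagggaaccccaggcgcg
VIM, chr10:17227991-17228290, plus strand: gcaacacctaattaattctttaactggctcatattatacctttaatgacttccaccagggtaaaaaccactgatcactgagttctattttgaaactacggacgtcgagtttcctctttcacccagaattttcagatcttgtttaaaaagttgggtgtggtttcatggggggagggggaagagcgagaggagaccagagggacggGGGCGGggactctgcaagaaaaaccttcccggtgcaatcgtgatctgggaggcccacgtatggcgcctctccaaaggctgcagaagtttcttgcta
ZEB1, window 3 of 7, chr10:31318966-31319265, plus strand: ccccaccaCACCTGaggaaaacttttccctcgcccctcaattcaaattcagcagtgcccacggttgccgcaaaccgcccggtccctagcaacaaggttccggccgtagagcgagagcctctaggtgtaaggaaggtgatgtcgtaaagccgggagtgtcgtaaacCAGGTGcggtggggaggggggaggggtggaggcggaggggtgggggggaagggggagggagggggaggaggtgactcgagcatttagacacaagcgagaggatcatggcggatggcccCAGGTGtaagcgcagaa
The FN1 window held the cAMP response element TGACGTCA 183 bases before the start, a motif found in 1.85% of 35116 windows of this length. It also held 6 matches to the GC box GGGCGG, of which some overlap, and 2.86% of windows held at least as many. The VIM window held 1 such match, and 45.0% of windows held at least 1. The windows of FN1 and VIM held no CANNTG (the E-box), which 68.7% of windows have. The ZEB1 window, chosen among its 7 for the most matches, held CAGGTG, the E-box form preferred by SNAI and ZEB proteins, 3 times. It is printed CACCTG where it lies on the other strand. Of all windows 0.635% reached that number, a share for single windows and not for the best of 7. The other windows of ZEB1 held 1 or 0 matches. The AP-1 site TGANTCA (7.71% of windows), the paired grainyhead site AACCNGGTT (0.239%) and TATAAA (11.5%) were not in the windows of FN1 and VIM. A match of letters is a description and not a bound site.

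Values are FPKM as deposited, a fragment count divided by gene length in kilobases and by library depth in M (mega) fragments. They are given per length, so levels of different genes can be set side by side, but this does not remove the differences by GC content given below. Depth recovered from the low values was 17.8 to 21.8 M fragments per library. The targeted ALDOA was at 501 and 462 FPKM with siALDOA and 906 FPKM with NC in PANC-1, and at 262 and 318 FPKM with siALDOA and 726 FPKM with NC in 90. Genes with a GC content of at most 39.6% stood apart by library. Their median log2 change from the NC library of the same line was -1.02 in siALDOA 1 and 0.56 in siALDOA 2 of PANC-1, and 1.40 in siALDOA 1 and 0.12 in siALDOA 2 of 90. Of 8 epithelial markers 0 passed the test described below as higher and 5 as lower in PANC-1, where 18.4% of all tested genes passed as lower. The keratin KRT8 was at 1523 to 1969 FPKM in PANC-1 and 1074 to 1506 in 90, and EPCAM at 7.51 to 17.5 FPKM in PANC-1 and 88.6 to 154 in 90. The 12 fibroblast markers summed to 17.0 to 22.2 FPKM in PANC-1 and 5.88 to 8.47 in 90. COL1A1 and THY1 were higher and ACTA2 lower in PANC-1, and DCN, PDGFRA and FAP were at most 0.0277 FPKM in any library. THY1 entered the test through PANC-1 alone. Of 7 immune markers only CD68 was tested and was higher in PANC-1, while PTPRC was at most 0.0169 FPKM. Of 6 endothelial markers only CDH5 was tested, listed at 0 in PANC-1 and at most 3.28 FPKM in 90. Acinar and endocrine markers had 0 tested genes. The part of other cells in the results was not tested. In RNA from bulk samples, fewer cells of a type and less RNA per cell cannot be told apart.

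**Figure D1:**
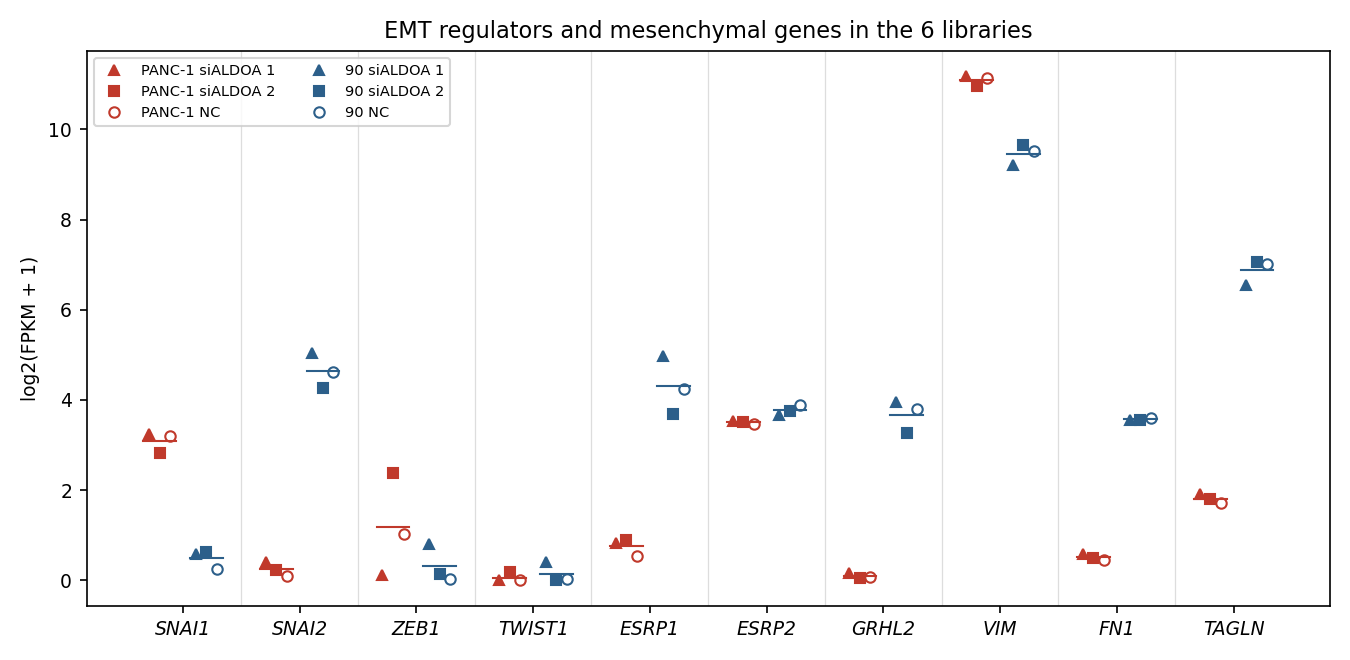
Level of each of the 10 genes in every library, as log2(FPKM + 1). Red symbols are PANC-1 and blue symbols 90, triangles and squares are siALDOA 1 and siALDOA 2, open circles are NC, and bars are the mean of 3 libraries. The lines are well apart for SNAI1, SNAI2, ESRP1, GRHL2, VIM, FN1 and TAGLN, close for ESRP2, and mixed for ZEB1 and TWIST1.

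PANC-1 carried SNAI1 and VIM at higher levels than 90, and SNAI2, ESRP1, GRHL2, FN1 and TAGLN at lower levels. The 3 mesenchymal genes therefore did not move together: VIM was 3.09-fold higher in PANC-1, whereas FN1 averaged 0.428 FPKM in PANC-1 and 10.9 FPKM in 90 and TAGLN 2.51 FPKM in PANC-1 and 118 FPKM in 90. By limma's moderated test on log2(FPKM + 1) with terms for line and siALDOA, 7 of the 9 tested genes passed an adjusted p of 0.05, 2 higher and 5 lower. The lines differ widely, and 38.8% of the 12592 tested genes passed, 20.4% as higher and 18.4% as lower. Genes entered the test if their mean over all 6 libraries reached 1 FPKM. SNAI1 and ZEB1 reached that mean through PANC-1 alone and SNAI2, ESRP1, GRHL2 and FN1 through 90 alone, so a difference in that direction was built into their entry. VIM, TAGLN and ESRP2 averaged at least 1 FPKM in each line, and among the 10794 such genes 32.8% passed. TWIST1 did not reach the mean and was not tested. The median log2 difference over all tested genes was 0.13, and 0.023 after median-ratio scaling. The plot of differences gives the 9 tested genes with their intervals.

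**Figure D2:**
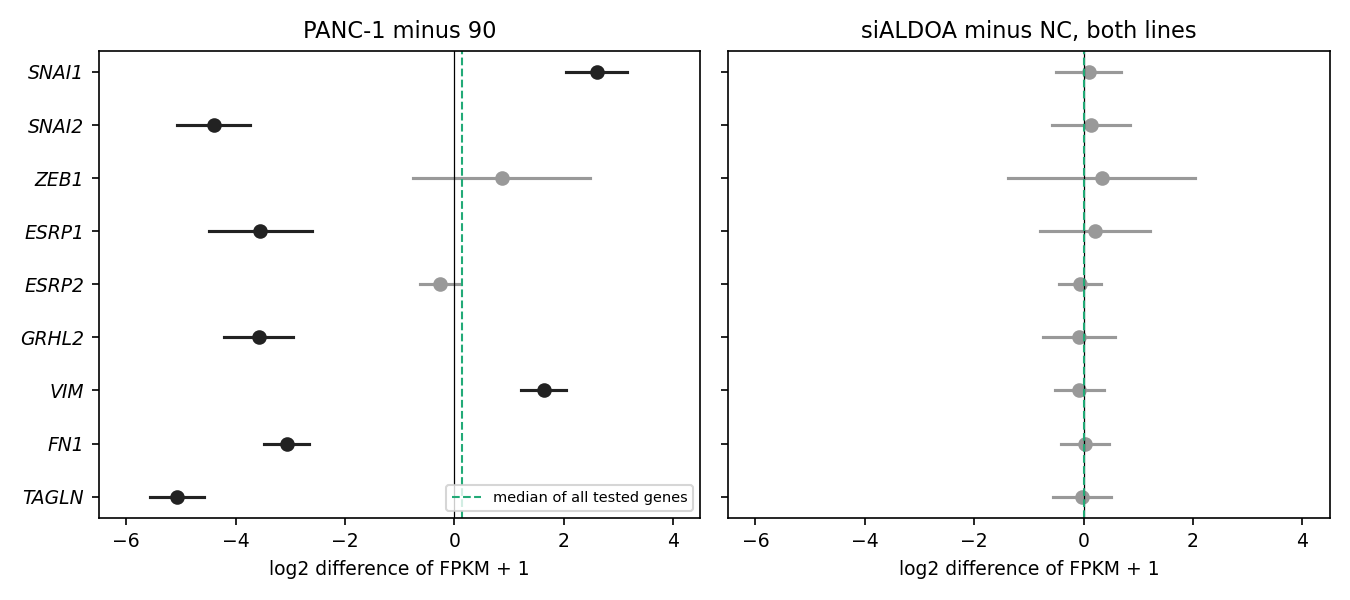
Log2 difference of FPKM + 1 for the 9 tested genes, PANC-1 minus 90 on the left and siALDOA minus NC over both lines on the right, with 95% intervals from limma. Black marks passed an adjusted p of 0.05 and grey marks did not, and the dashed line is the median of all tested genes. The left panel runs from -5.06 for TAGLN to 2.60 for SNAI1, while the right panel stays between -0.085 and 0.33.

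SNAI1 is a repressor of CDH1 and a short-lived protein that is set largely by its turnover. In GENCODE v29 (GRCh38), used for all positions of genes here, it spans 49982999 to 49988886 of chromosome 20, plus strand. It was at 8.52 FPKM in siALDOA 1, 6.12 in siALDOA 2 and 8.22 in NC of PANC-1, against 0.510, 0.553 and 0.198 in siALDOA 1, siALDOA 2 and NC of 90. All 3 PANC-1 libraries lay above all 3 of 90, as for 29% of tested genes; the lines did not overlap in either direction for 54.1%. The level was a mean of 7.62 ± 1.31 in PANC-1 and 0.420 ± 0.194 in 90 (SD, n = 3 each), a log2 difference of 2.60 (SE 0.219, limma adjusted p = 1.00e-03). At a gene length inferred from the values, they came to 318, 196 and 290 fragments in siALDOA 1, siALDOA 2 and NC of PANC-1. In those of 90 they came to 17, 18 and 6.

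SNAI2, also called Slug, is the close relative of SNAI1 that is linked to basal epithelial cells and the neural crest. It spans 48917604 to 48921740 of chromosome 8, minus strand. It was at 0.325 FPKM in siALDOA 1, 0.177 in siALDOA 2 and 0.0688 in NC of PANC-1, against 32.2, 18.2 and 23.5 in siALDOA 1, siALDOA 2 and NC of 90. The lines did not overlap, and the log2 difference was -4.40 (SE 0.261, limma adjusted p = 3.70e-04). The PANC-1 values rested on 15, 7 and 3 fragments, the last with a 95% Poisson interval of 0.619 to 8.77 fragments, which covers counting error only. The 90 values rested on 733 to 1325 fragments.

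The 2 SNAI genes thus lay in opposite orders in the lines. SNAI1 made up 96.3% to 99.2% of the summed SNAI1 and SNAI2 level in the PANC-1 libraries, and 0.832% to 2.95% in the libraries of 90. The summed level itself was 6.30 to 8.84 FPKM in PANC-1 and 18.8 to 32.7 FPKM in 90. The relative SNAI3 was at 0.356 to 0.938 FPKM in PANC-1 and 0.342 to 0.617 in 90, with the ranges overlapping.

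ZEB1 represses CDH1 and the miR-200 genes, which in turn repress ZEB1. It spans 31318495 to 31529814 of chromosome 10, plus strand. It was at 0.0906 FPKM in siALDOA 1, 4.23 in siALDOA 2 and 1.06 in NC of PANC-1, against 0.750, 0.0960 and 0.0171 in siALDOA 1, siALDOA 2 and NC of 90. The lines overlapped, since siALDOA 1 of PANC-1 lay below siALDOA 1 and siALDOA 2 of 90, and within PANC-1 the highest library was 46.7 times the lowest. The difference did not pass (log2 difference 0.86, SE 0.627, 95% interval -0.75 to 2.47, limma adjusted p = 0.350).

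The result for ZEB1 depended on the siALDOA libraries of PANC-1. Without siALDOA 2 the log2 difference was 0.24 (limma adjusted p = 0.775). Without siALDOA 1 the log2 difference was 1.53 and passed (limma adjusted p = 0.0317). Without siALDOA 1 of both lines, an alternative chosen after seeing the data, it was 1.64. No p is given for that fit, since with so few libraries its spread came mostly from other genes. Over all 19 alternatives the log2 difference ran from 0.24 to 1.87, with adjusted p up to 0.775. Within each line the siALDOA libraries stood in the same order for ZEB1 as for the genes of low GC content, siALDOA 1 below siALDOA 2 in PANC-1 and above it in 90. The part of that library trend in the ZEB1 values was not tested beyond a correction by GC content, under which the difference was 0.69 and did not pass (limma adjusted p = 0.106). Whole fragments numbered 13, 521 and 143 in siALDOA 1, siALDOA 2 and NC of PANC-1, and 96, 12 and 2 in those of 90.

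TWIST1, a regulator of mesoderm formation, was near the limit of detection. It spans 19020991 to 19117672 of chromosome 7, minus strand. It was listed at 0 FPKM in siALDOA 1, 0.131 in siALDOA 2 and 0 in NC of PANC-1, against 0.335, 0 and 0.0230 in siALDOA 1, siALDOA 2 and NC of 90. At a gene length of 2451 bases inferred from them, these values come to 0, 6 and 0 fragments in PANC-1 and 16, 0 and 1 in 90. The exons of TWIST1 in GENCODE v29 cover 2033 bases. Taking 3 fragments as the limit that a count of 0 allows, TWIST1 could have been at up to 0.0560 and 0.0593 FPKM in siALDOA 1 and NC of PANC-1 and 0.0643 in siALDOA 2 of 90. Its relative TWIST2 was at 1.14 to 1.49 FPKM in PANC-1 and at most 0.0375 in 90, below the mean needed for the test. With no filter on low values, TWIST1 itself did not pass (log2 difference -0.091, SE 0.123, limma adjusted p = 0.662).

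ESRP1 and ESRP2 are RNA-binding proteins that set epithelial splice forms of transcripts such as FGFR2 and CD44. ESRP1 spans 94641074 to 94707466 of chromosome 8, plus strand. It was at 0.782 FPKM in siALDOA 1, 0.869 in siALDOA 2 and 0.458 in NC of PANC-1, against 30.5, 12.0 and 18.0 in siALDOA 1, siALDOA 2 and NC of 90. The lines did not overlap, and the log2 difference was -3.55 (SE 0.367, limma adjusted p = 1.80e-03). Counts were 36 to 65 fragments in PANC-1 and 869 to 2266 in 90.

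ESRP2 did not pass the test between the lines. It spans 68229111 to 68238102 of chromosome 16, minus strand. It was at 10.6 FPKM in siALDOA 1, 10.4 in siALDOA 2 and 10.1 in NC of PANC-1, against 11.7, 12.6 and 13.9 in siALDOA 1, siALDOA 2 and NC of 90. Every PANC-1 library was lower than every library of 90, as for 25.1% of tested genes, but the difference did not pass (log2 difference -0.27, SE 0.141, 95% interval -0.63 to 0.093, limma adjusted p = 0.205). ESRP1 made up 4.33% to 7.69% of the summed ESRP1 and ESRP2 level in PANC-1, and 48.8% to 72.3% in 90. GC content is 42.8% for ESRP1 and 59.6% for ESRP2, and its part in these shares was not tested.

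GRHL2 is a grainyhead transcription factor that upholds CDH1 and claudin genes. It spans 101492432 to 101669726 of chromosome 8, plus strand. It was at 0.114 FPKM in siALDOA 1, 0.0408 in siALDOA 2 and 0.0556 in NC of PANC-1, against 14.5, 8.57 and 13.0 in siALDOA 1, siALDOA 2 and NC of 90. The log2 difference was -3.58 (SE 0.244, limma adjusted p = 5.33e-04), and the lines did not overlap. PANC-1 had 4 to 13 fragments and 90 had 853 to 1481, and the mean in 90 was 172 times that in PANC-1. Among its relatives, GRHL3 was higher in PANC-1 (5.31, 4.97 and 5.03 FPKM in siALDOA 1, siALDOA 2 and NC of PANC-1 against 1.23, 1.23 and 1.78 in those of 90, limma adjusted p = 3.60e-03), and GRHL1, not tested, was at 0.606 to 1.18 FPKM in PANC-1 and 0.153 to 0.363 in 90.

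VIM was the most abundant of the 10 genes in both lines. It encodes vimentin and spans 17228259 to 17237593 of chromosome 10, plus strand. It was at 2322 FPKM in siALDOA 1, 1976 in siALDOA 2 and 2257 in NC of PANC-1, against 593, 802 and 728 in siALDOA 1, siALDOA 2 and NC of 90. The mean was 2185 ± 184 FPKM in PANC-1 and 707 ± 106 in 90 (SD, n = 3 each), with every PANC-1 library above every library of 90. The log2 difference was 1.63 (SE 0.162, limma adjusted p = 1.59e-03). The antisense gene VIM-AS1, which overlaps the VIM gene by 1727 bases, was at 0.269 to 0.911 FPKM in PANC-1 and 0.660 to 1.20 in 90.

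FN1 encodes fibronectin and spans 215360440 to 215436172 of chromosome 2, minus strand. It was at 0.510 FPKM in siALDOA 1, 0.406 in siALDOA 2 and 0.369 in NC of PANC-1, against 10.8, 10.8 and 11.1 in siALDOA 1, siALDOA 2 and NC of 90. The 90 libraries lay within 1.03-fold of each other, the narrowest spread of any of the 10 genes in that line, and the lines did not overlap. The log2 difference was -3.06 (SE 0.161, limma adjusted p = 2.71e-04), with 67 to 98 fragments in PANC-1 and 1742 to 1861 in 90.

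TAGLN encodes transgelin, a smooth muscle protein that binds actin, and spans 117199321 to 117204782 of chromosome 11, plus strand. It was at 2.76 FPKM in siALDOA 1, 2.50 in siALDOA 2 and 2.27 in NC of PANC-1, against 92.8, 132 and 128 in siALDOA 1, siALDOA 2 and NC of 90. The lines did not overlap, and the log2 difference of -5.06 (SE 0.193, limma adjusted p = 1.79e-04) was the greatest in size among the 9 tested genes. PCSK7, which overlaps the TAGLN gene by 446 bases on the opposite strand, was at 17.2 to 23.2 FPKM in PANC-1 and 12.5 to 16.6 in 90. Whether the counting used strand is not stated in the labels or notes, so reads from such overlaps cannot be told apart. The same holds for ZEB1-AS1, which overlaps the ZEB1 gene by 1953 bases. ZEB1-AS1 was at 0.827 to 1.33 FPKM in PANC-1 and 1.65 to 4.01 in 90, above ZEB1 in each library of 90. The relative TAGLN2 did not pass (382 to 504 FPKM in PANC-1 against 541 to 711 in 90, limma adjusted p = 0.0845).

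Ordered by mean FPKM, the genes ran VIM, ESRP2, SNAI1, TAGLN, ZEB1, ESRP1, FN1, SNAI2, GRHL2 and TWIST1 in PANC-1. The ranges of neighbours overlapped for TAGLN and ZEB1, ZEB1 and ESRP1, ESRP1 and FN1, SNAI2 and GRHL2, and GRHL2 and TWIST1. In 90 the order was VIM, TAGLN, SNAI2, ESRP1, ESRP2, GRHL2, FN1, SNAI1, ZEB1 and TWIST1. There the ranges of neighbours from SNAI2 down to FN1 overlapped, as did those of SNAI1, ZEB1 and TWIST1. FN1 and SNAI1 did not overlap in 90, and no neighbour overlapped VIM in either line. The gap below VIM was wide, with ESRP2 next at a mean of 10.4 FPKM in PANC-1 and TAGLN next at 118 in 90.

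Setting siALDOA against NC across the lines asks whether the EMT genes moved with the knockdown. None of the 9 tested genes passed, and limma called 0 of all 12592 genes, with 43 (0.341%) at an unadjusted p under 0.05. ALDOA, the target of the siRNA, was among the tested genes and did not pass either, so the test missed the knockdown itself. Log2 changes ran from -0.085 for GRHL2 to 0.33 for ZEB1. The intervals were wide enough to hold sizeable changes, for VIM -0.52 to 0.37, for FN1 -0.41 to 0.46, for SNAI1 -0.50 to 0.69 and for ZEB1 -1.38 to 2.04. Within PANC-1, within 90 and for the difference between these effects, limma also called 0 genes (21, or 0.167%, 33, or 0.262%, and 24, or 0.191%, at an unadjusted p under 0.05). All changes within a line hang on its lone NC library.

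**Figure D3:**
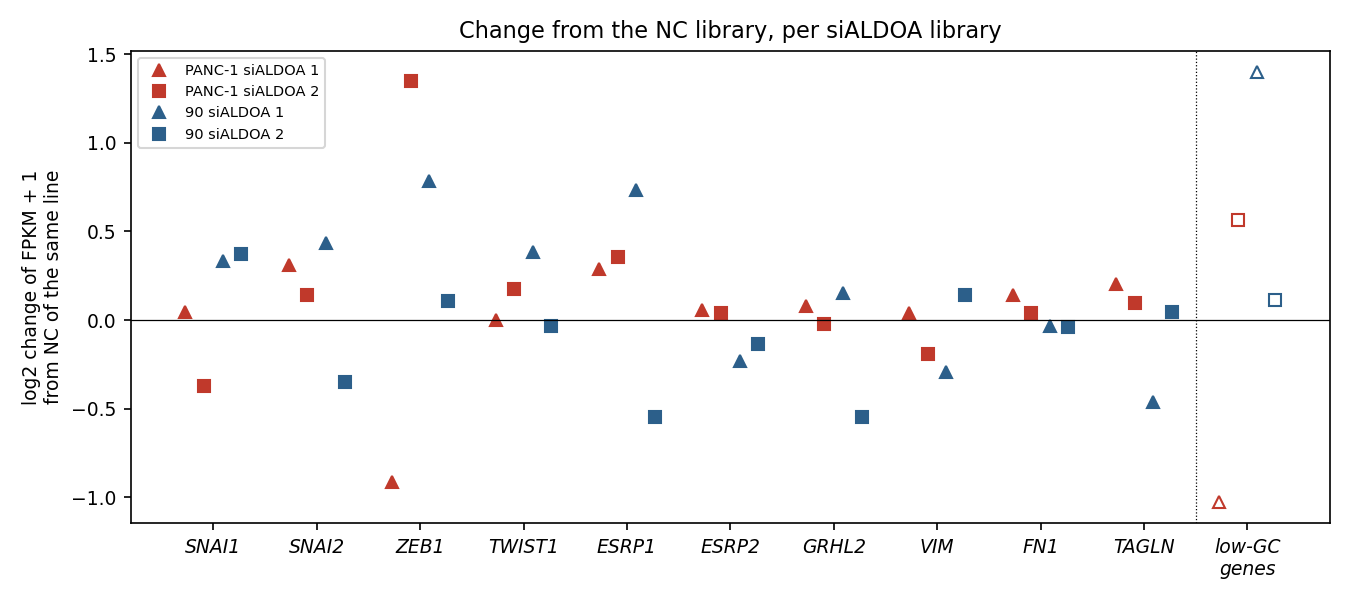
Log2 change of FPKM + 1 from the NC library of the same line, for each of the 4 siALDOA libraries and each of the 10 genes. The open symbols at the right are the median of the genes with a GC content of at most 39.6%, from -1.02 in PANC-1 siALDOA 1 to 1.40 in 90 siALDOA 1. ZEB1, itself of low GC content (38.5%), is the most spread gene, from -0.91 to 1.35.

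The siALDOA libraries of a line differed in direction for many of the genes, as they did for many of all tested genes. In PANC-1 22.9% of all tested genes lay above NC in both siALDOA libraries and 17.1% below in both. In 90 these shares were 20.6% and 22.5%. In PANC-1, SNAI1, GRHL2 and VIM lay above NC in siALDOA 1 and below it in siALDOA 2, and ZEB1 the other way round. In 90, SNAI2, ESRP1 and GRHL2 lay above NC in siALDOA 1 and below it in siALDOA 2, and VIM and TAGLN the other way round. ESRP1 changed from NC by 0.73 in siALDOA 1 and -0.54 in siALDOA 2 of 90 on the log2 scale. The genes of low GC content also stood higher in siALDOA 1 than in siALDOA 2 of 90 (medians of 1.40 and 0.12 above), and their part in these values was not tested.

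SNAI1 was at 2.58 and 2.80 times NC in siALDOA 1 and siALDOA 2 of 90, but on 17 and 18 fragments against 6 in NC. The 95% Poisson intervals were 9.90 to 27.2 and 10.7 to 28.4 fragments in the siALDOA libraries and 2.20 to 13.1 in NC, so they overlap. In PANC-1 SNAI1 was at 1.04 and 0.744 times NC. ZEB1 changed by -0.91 and 1.35 log2 units in siALDOA 1 and siALDOA 2 of PANC-1 and by 0.78 and 0.11 in those of 90. None of the 9 tested genes had all 4 siALDOA libraries on the same side of NC, as 9.21% of all tested genes did. FN1 and ESRP2 lay above NC in both siALDOA libraries of PANC-1 and below NC in both of 90. Over all tested genes 22.9% lay above in both of PANC-1 and 22.5% below in both of 90. The share of genes that did both at once was not taken. For FN1 the changes were 0.14 and 0.039 in PANC-1 and -0.035 and -0.038 in 90, and for ESRP2 0.054 and 0.038 in PANC-1 and -0.23 and -0.13 in 90. FN1 had 67 fragments in siALDOA 2 and 67 in NC of PANC-1, so the change of 0.039 came from their depths (18.7 and 20.6 M fragments). The difference between the lines in the siALDOA effect did not pass for either gene.

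Other regulators were read from lists of genes drawn up for these cells with earlier results of the data known, so their counts describe and do not test. The plot of the lists shows every tested gene.

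**Figure D4:**
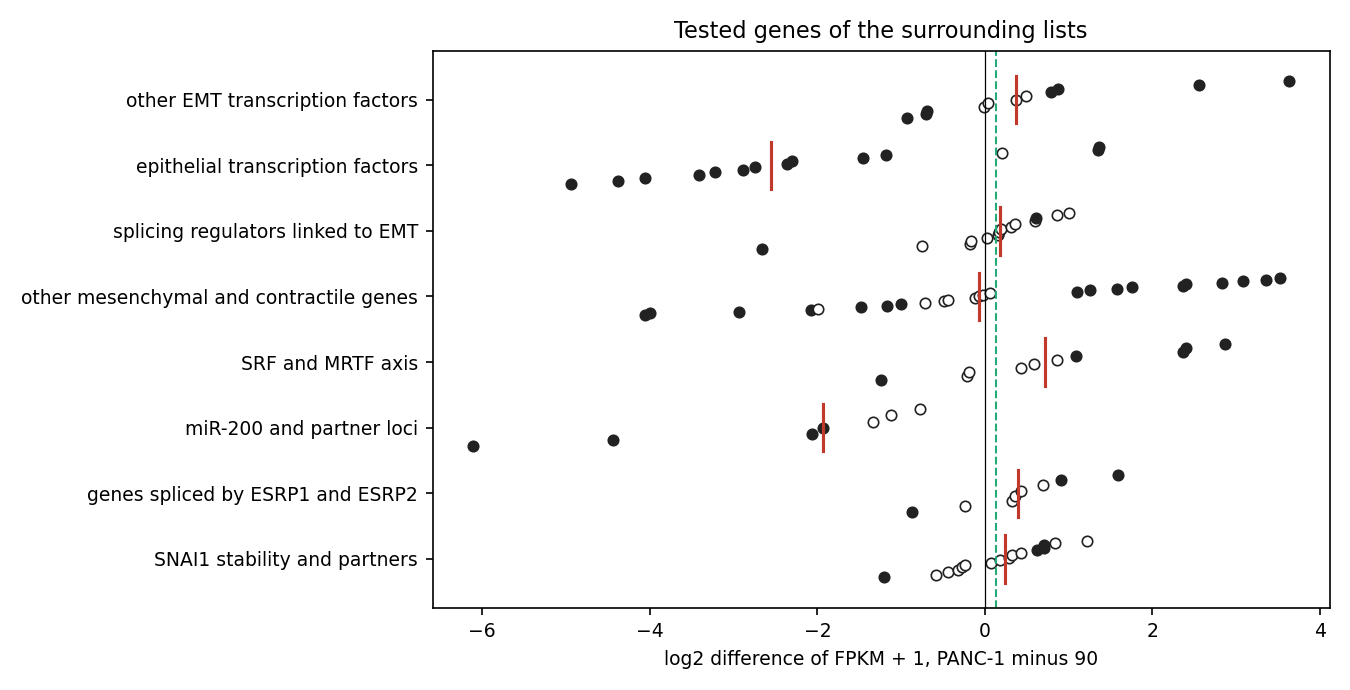
Log2 difference of FPKM + 1, PANC-1 minus 90, for the tested genes of 8 lists around the EMT genes. Filled marks passed an adjusted p of 0.05, red bars are list medians and the dashed line is the median of all tested genes (0.13). Epithelial transcription factors lie mostly to the left, at a median of -2.55, but only 5 of the 14 averaged at least 1 FPKM in each line. Of those 5, 2 passed as higher and 2 as lower, where 18.7% and 14.1% of all such genes did. The mesenchymal and contractile genes, listed with the epithelial CDH1 and CDH3, lie on both sides, at a median of -0.068.

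Of the other EMT transcription factors, 11 of 20 were tested, 4 rose and 3 fell in PANC-1 relative to 90, at a median of 0.38, where 20.4% of all tested genes passed as higher and 18.4% as lower. Of the 9 that averaged at least 1 FPKM in each line, 2 rose and 3 fell. For all such genes the shares were 18.7% higher and 14.1% lower. FOXC2, a forkhead factor, was at 12.6, 10.5 and 11.5 FPKM in siALDOA 1, siALDOA 2 and NC of PANC-1 and at most 0.0312 in 90 (log2 difference 3.63), and PRRX2 at 4.07 to 6.25 in PANC-1 and at most 0.0858 in 90 (2.56). Both entered the test through PANC-1 alone. FOSL1, an AP-1 subunit, was at 214 to 276 FPKM in PANC-1 and 114 to 155 in 90 (0.88), and YBX1 at 853 to 1010 FPKM in PANC-1 and 487 to 627 in 90 (0.79). Among those that fell were MSX1 (-0.94) and FOXC1 (-0.69). ZEB2, the relative of ZEB1, was at most 0.0751 FPKM in PANC-1 and 0.0333 in 90, and PRRX1 was at 0 in all libraries but NC of PANC-1, at 0.0119.

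Of 17 epithelial transcription factors 14 were tested, and 2 rose and 11 fell in PANC-1, at a median of -2.55. Over all tested genes 20.4% passed as higher and 18.4% as lower. Of these 14, 5 averaged at least 1 FPKM in each line, and among those 5 the calls were 2 higher and 2 lower. For all such genes the shares were 18.7% higher and 14.1% lower. Log2 differences follow the values in parentheses. KLF5 was at 0.299 to 0.475 FPKM in PANC-1 and 18.8 to 48.3 in 90 (-4.37), EHF at 0.0622 to 0.244 FPKM in PANC-1 and 9.04 to 55.0 in 90 (-4.06), and SPDEF at 0.139 to 0.203 FPKM in PANC-1 and 10.4 to 12.4 in 90 (-3.42). KLF5, EHF and SPDEF entered the test through 90 alone, so a lower level in PANC-1 was built into their entry. FOXA2, a factor of foregut endoderm, ran against these, at 18.9 to 25.2 FPKM in PANC-1 and 6.58 to 9.37 in 90 (1.37), as did GRHL3 above.

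Loci of the miR-200 family and partners were represented by 11 of 16 genes. Of these 7 were tested, 0 rose and 4 fell in PANC-1, at a median of -1.94. Over all tested genes 20.4% passed as higher and 18.4% as lower. MIR205HG, the host transcript of miR-205, was at 0.411, 0 and 0 FPKM in siALDOA 1, siALDOA 2 and NC of PANC-1 against 84.4, 65.1 and 80.4 in those of 90 (log2 difference -6.10). MIR205, whose reads share the host's locus, was at 0.416, 0 and 0 FPKM in those PANC-1 libraries and 25.6, 18.2 and 27.6 FPKM in those of 90. MIR429 was listed at 0 in all PANC-1 libraries and at 2.71 to 3.71 FPKM in 90, and MIR141 at 0 in all PANC-1 libraries and at 1.62 to 4.42 FPKM in 90. All 4 entered the test through 90 alone. With the RefSeq lengths, MIR429 had 6, 5 and 4 fragments and MIR141 3, 8 and 5 in siALDOA 1, siALDOA 2 and NC of 90. A limit of 3 fragments in PANC-1 corresponds to 1.65 to 1.93 FPKM for MIR429 and 1.45 to 1.69 FPKM for MIR141, so for MIR141 it overlaps the levels in 90. MIR200A did not pass (at most 0.509 FPKM in PANC-1 and 0 to 5.84 in 90), and MIR200B and MIR200C were not tested. Poly(A) libraries read precursor or host transcripts at these loci, not the mature sequences printed above.

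Of 15 splicing regulators linked to EMT 14 were tested and 12 did not pass, while 38.8% of all tested genes passed. The SE of those 12 ran from 0.131 for HNRNPM to 1.14 for MBNL2, which lay at 1.44 to 22.2 FPKM within 90. Not passing therefore does not show equal levels in the lines. KHDRBS3 rose (log2 difference 0.61), and RBM47, another epithelial RNA-binding protein, fell (-2.66, at 0.312 to 0.561 FPKM in PANC-1 and 5.21 to 11.5 FPKM in 90). RBM47 entered the test through 90 alone, and of the 12 genes that averaged at least 1 FPKM in each line 1 rose and 0 fell. For all such genes the shares were 18.7% higher and 14.1% lower. The median was 0.18, against 0.13 for all tested genes. Of 10 genes spliced by ESRP1 and ESRP2, 8 were tested, and 2 rose and 1 fell. Over all tested genes 20.4% passed as higher and 18.4% as lower. CD44 (224 to 271 FPKM in PANC-1 and 65.9 to 95.8 in 90, log2 difference 1.59) and EXOC7 (0.90) rose and CTNND1, the gene of p120-catenin, fell (-0.87). The median was 0.40, and these levels per gene hold nothing on splice forms.

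Of 37 other mesenchymal, contractile and cadherin genes 25 were tested, and 10 rose and 7 fell in PANC-1, at a median of -0.068. Over all tested genes 20.4% passed as higher and 18.4% as lower. Of the 21 that averaged at least 1 FPKM in each line, 8 rose and 6 fell. Among all such genes 18.7% passed as higher and 14.1% as lower. TPM2, a tropomyosin, was at 374, 293 and 382 FPKM in siALDOA 1, siALDOA 2 and NC of PANC-1 against 26.4, 31.5 and 30.2 in those of 90 (log2 difference 3.52). The intermediate filament gene NES was at 61.0 to 79.6 FPKM in PANC-1 and 5.48 to 6.40 in 90 (3.35). THY1 was at 5.14 to 7.04 FPKM in PANC-1 and listed at 0 in all libraries of 90, and entered the test through PANC-1 alone. CDH2, or N-cadherin, named after its values were seen, was at 5.29 to 7.82 FPKM in PANC-1 and 0.866 to 1.39 in 90 (1.75, limma adjusted p = 3.37e-03). On the lower side were CDH3, or P-cadherin, at 0.799 to 1.52 FPKM in PANC-1 and 29.2 to 39.8 in 90 (-4.06), and CDH1 at 1.18 to 2.05 FPKM in PANC-1 and 38.0 to 44.5 in 90. CDH11 was at 0.0355 to 0.0684 FPKM in PANC-1 and 4.44 to 10.95 in 90 (-2.94). It entered the test through 90 alone, so a lower level in PANC-1 was built into its entry. TGFBI, a matrix protein, was at 141 to 171 FPKM in PANC-1 and 570 to 716 in 90 (-2.07). CDH1 and CDH3 mark epithelial cells, and the list holds them as the partners of the other cadherins. Both count among the 7 that fell, and among the 6 of those with at least 1 FPKM in each line.

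Genes of the SRF and MRTF axis, which controls actin-linked transcripts such as TAGLN, were tested for 10 of 12 members, of which 4 rose and 1 fell, at a median of 0.72, where 20.4% of all tested genes passed as higher and 18.4% as lower. FHL2 (185 to 211 FPKM in PANC-1 and 23.6 to 30.2 in 90, log2 difference 2.87), CTGF (2.41), CYR61 (2.36) and VCL (1.08) rose, while FLNA, the gene of filamin A, fell (-1.24), as TAGLN did. CTGF and CYR61 are also in the mesenchymal list. SRF itself did not pass (18.8 to 24.2 FPKM in PANC-1 and 11.6 to 16.2 in 90, log2 difference 0.58, limma adjusted p = 0.0616). Of 19 partners and regulators of SNAI1 protein, 16 were tested, and 3 rose and 1 fell, at a median of 0.23. So 4 of 16 passed, where 38.8% of all tested genes did. The SE of those that did not pass ran from 0.126 for PAK1 to 1.17 for SUZ12, so not passing does not show equal levels. The corepressors HDAC1 (0.71) and KDM1A (0.70) and the kinase CSNK1D (0.62) were higher in PANC-1, and FBXL14, a ubiquitin ligase of SNAI1, was at 10.3 to 11.4 FPKM in PANC-1 and 21.4 to 29.2 in 90 (-1.20).

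Each tested gene was set beside all others by Pearson's r of log2(FPKM + 1) over the 6 libraries, a measure set mostly by the difference between 2 lines, since libraries of a line share their origin. The genes most like SNAI1 were SOX21, C1QL1 and SIRT3, those like SNAI2 included FST and ANXA10, and those most like ESRP1 were MXRA5, KIAA1217 and FAM84B. GRHL2 was nearest to RPL18P8, MYH13 and ADTRP, VIM to MTG1, TSPAN15 and VWA1, and TAGLN to ARTN, DOK7 and FAM167A. FN1 was nearest to PITPNM3 and IFNWP19, beside a gene whose symbol had been turned into a date in the table. For these 7 genes 1143 to 1861 genes had an r over 0.95, so the genes named do not stand apart. ESRP2 (CLUHP3, ZBTB47 and ALG14) and ZEB1 (FAM169A, SNORD63 and FAM172A) had 95 and 72 such genes.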

How the data were processed

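Poly(A) RNA-seq libraries of 2 PDAC lines were analysed, 6 libraries in 4 groups set by their titles. The authors deposited FPKM values per gene and library. HISAT2, featureCounts and the build hg38 are named in the submitters' processing notes, without versions, settings, strandedness or gene lengths. Of 41769 rows, 1 had no gene name.

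FPKM values were analysed as log2(FPKM + 1), which understates fold changes of low genes. Genes whose mean reached 1 FPKM were tested with limma 3.58.1 (R 4.3.3) with an intensity trend and Benjamini-Hochberg adjustment over 12592 genes at 0.05. The fit with terms for line and siALDOA left 3 residual degrees of freedom, and the fit of the 4 group means, used within lines and for their difference, left 2. There the lone NC library takes its spread from the siALDOA libraries. The limma script was tested on simulated data.

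Short RNA values lay on whole fragments for 96.1% to 97.1% of values (tolerance 0.03 of a fragment), which gave each library's depth. For 7 of the 10 genes a gene length put all 6 values on whole fragments within 0.01 of a fragment plus 1e-04 of the count. This length was inferred from the values, searching from 500 bases up and taking the first fit. The counts are therefore the smallest that such a fit allows. Intervals cover counting error only, and no count test was run, since lengths of all genes are not in the table. GC content came from GENCODE v29 for 90.6% of tested genes.

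The 10 genes and the lists were chosen with earlier results of these data known. Of each list, up to 4 called genes per direction with the greatest log2 difference are named, beside relatives of the 10 genes and a few low or marker genes picked after their values were seen. For likeness, the 3 genes of highest r are named. Some genes that these rules take in are not reported here. Alternatives were other pseudocounts, filters, scalings, a GC correction, a prior without trend, leaving out each library and a replicate block.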

Additional observations from a re-analysis of the deposited data

How the results depend on the processing

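For PANC-1 against 90 the number of EMT genes called was 7 under 17 of 19 alternatives and 8 without siALDOA 1 of PANC-1 or without siALDOA 1 of both lines, where ZEB1 was added (1.53 and 1.64). The fit without siALDOA 1 of both lines left the fewest residual degrees of freedom, so its calls here rest mostly on a spread borrowed from other genes. The log2 differences of the 9 genes kept their sign under all 19. Over all genes the calls ran from 2422 to 7594, against 4882, and the share called higher was 43.4% of 3700 after median-ratio scaling and 63.7% of 7201 without siALDOA 1 of both lines, against 52.6%. The replicate block over library numbers left 7 EMT genes called and 3258 genes in all. Deviations of same-numbered libraries correlated at -0.86 over 12592 genes, and with crossed numbers the block, chosen after seeing the data like the fit of the 4 siALDOA libraries alone and the fit without siALDOA 1 of both lines, left 7 and 7594. The other comparisons called 0 EMT genes under each alternative run, while over all genes they called 0 except for 17 over both lines without siALDOA 1 of both lines and, with no filter on low values, 49 within PANC-1 and 38 within 90. Their log2 values over both lines, none past the test, changed sign in 21 of 144 cases and the cause was not tested: under the GC correction for FN1 (-0.056), SNAI2 (-0.0043) and TAGLN (0.017), as TPM for TAGLN (0.044), after quantile normalization for TAGLN (0.0075) and VIM (0.066), and without siALDOA 1 of both lines for ESRP1 (-0.093), SNAI2 (-0.11) and TAGLN (0.073). Leaving out 1 library gave ranges of -0.049 to 0.50 for ESRP1, -0.18 to 0.046 for ESRP2, -0.037 to 0.090 for FN1, -0.22 to 0.081 for GRHL2, -0.16 to 0.36 for SNAI1, -0.023 to 0.31 for SNAI2, -0.21 to 0.15 for TAGLN, -0.17 to 0.017 for VIM and -0.14 to 0.83 for ZEB1. Depth limits TWIST1 in both lines, SNAI2 and GRHL2 in PANC-1 and SNAI1 and ZEB1 in 90, each on at most 18 fragments in at least 2 libraries.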
